A study of Mus musculus with 2 samples.

Results

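The 36 genes described here drive or stop the cell cycle, and they were read in a muscle whose fibres do not divide. The assay was DNase-seq, which maps open chromatin by sequencing the ends left where DNase I cuts it. The genes were taken by symbol from a named set of 4 classes, by a rule that holds no measured value although earlier results of these data were known: 14 replication genes, 9 genes of G1/S control, 10 mitosis genes and 3 genes of cell cycle exit. All 36 were found among the 21911 protein-coding genes of GENCODE release M21 on the autosomes and sex chromosomes of mm10. The material was the gastrocnemius, a calf muscle, of female B6CASTF1/J mice, the F1 cross of C57BL/6J and CAST/EiJ, aged 2 months. The labels name no treatment or engineered allele. They number the 2 libraries as biological replicates 1 and 2 of 1 group and describe the biosamples with different numbers for the female, but give both 1 donor identifier. The labels therefore do not settle whether the animals were separate, and the spread between the libraries may be partly technical.

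Adult muscle fibres are syncytia whose nuclei have left the cell cycle. In dividing cells, cyclin D with Cdk4 and cyclin E with Cdk2 phosphorylate Rb1, which frees E2F factors to drive replication genes at the G1/S border, and a later wave of genes carries cells through mitosis. In resting cells, complexes of pocket proteins, E2F factors and MuvB proteins bind the promoters of many of these genes and repress them, using E2F sites and an element called CHR (cell cycle genes homology region). Many mitosis promoters also carry CCAAT boxes, which bind NF-Y. Open chromatin at a promoter is not transcription, and no RNA was measured here.

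Replicate 1 had 66984 peaks with a median width of 208 bp and replicate 2 had 258342 peaks with a median width of 160 bp, 3.86 times as many. Of replicate 1's peaks 76.8% overlapped a peak of replicate 2, and of replicate 2's peaks 20.2% overlapped one of replicate 1. Merging overlapping or touching peaks gave 49160 shared peaks. The depth of sequencing is unknown. The labelled tissue was checked against markers by looking for peaks of each library within 1 kb of annotated starts. All 10 muscle fibre markers had them in both, as did 6 of 6 fibroblast, 5 of 6 endothelial and 1 of 6 satellite cell markers. None of 6 macrophage and leukocyte markers and none of 6 hepatocyte markers did (exact 95% Clopper-Pearson interval 0 to 45.9% for each, counting error only). The library holds nuclei of all cell types together, so a site open in few nuclei and a site weakly open in many cannot be told apart.

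Promoters of 10 genes that carry the results below are shown first, because their motif matches sit in or beside deposited footprints, the short stretches within open DNA where cuts are depleted. Each is the RefSeq promoter of build GRCm38.p6, from 190 bases before the start to 29 bases after it, 5′ to 3′ on the gene's strand. Capitals mark E2F words (TTTCGCGC, TTTGGCGC, TTTCCCGC or TTTGGCGG) and CCAAT in the replication genes Mcm5 and Mcm6, and E2F words, CHR words (TTTGAA or TTTAAA) and CCAAT in E2f3 and Cdk1. In the other mitosis genes, capitals mark CHR words and CCAAT, and in Cdkn1a they mark the SP word GGGCGG. Matches were read on both strands, and TTTAAA reads the same on each.
Mcm5, chr8:75109319-75109538, plus strand: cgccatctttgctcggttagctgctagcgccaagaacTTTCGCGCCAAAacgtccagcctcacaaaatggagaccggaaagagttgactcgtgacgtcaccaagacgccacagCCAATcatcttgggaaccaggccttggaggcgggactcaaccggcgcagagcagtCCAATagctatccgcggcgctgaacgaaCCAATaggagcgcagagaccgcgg
Mcm6, chr1:128359676-128359895, minus strand: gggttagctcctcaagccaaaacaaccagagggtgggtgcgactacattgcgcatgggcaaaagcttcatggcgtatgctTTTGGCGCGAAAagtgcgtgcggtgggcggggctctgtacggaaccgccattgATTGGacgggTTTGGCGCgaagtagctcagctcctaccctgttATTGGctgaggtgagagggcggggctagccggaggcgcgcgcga
E2f3, chr13:29986034-29986253, minus strand: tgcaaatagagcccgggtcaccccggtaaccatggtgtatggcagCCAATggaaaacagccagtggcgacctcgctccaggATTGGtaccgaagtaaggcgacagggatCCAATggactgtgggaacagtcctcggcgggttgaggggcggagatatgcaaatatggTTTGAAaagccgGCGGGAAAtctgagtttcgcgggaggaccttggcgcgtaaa
Ccnb1, chr13:100786457-100786676, minus strand: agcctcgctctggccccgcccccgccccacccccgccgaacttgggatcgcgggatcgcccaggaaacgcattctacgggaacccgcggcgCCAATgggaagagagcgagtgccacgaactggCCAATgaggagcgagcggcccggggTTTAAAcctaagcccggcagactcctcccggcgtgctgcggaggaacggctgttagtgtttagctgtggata
Ccnb2, chr9:70421525-70421744, minus strand: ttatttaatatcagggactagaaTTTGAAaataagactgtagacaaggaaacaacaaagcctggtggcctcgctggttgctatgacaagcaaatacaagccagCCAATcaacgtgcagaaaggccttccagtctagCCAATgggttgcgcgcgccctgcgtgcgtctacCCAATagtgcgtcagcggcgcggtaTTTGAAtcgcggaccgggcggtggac
Cdk1, chr10:69352883-69353102, minus strand: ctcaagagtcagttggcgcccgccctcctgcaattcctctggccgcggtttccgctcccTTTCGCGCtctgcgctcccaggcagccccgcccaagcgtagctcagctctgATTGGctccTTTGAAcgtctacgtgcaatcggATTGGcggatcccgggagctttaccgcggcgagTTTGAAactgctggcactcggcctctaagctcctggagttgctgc
Top2a, chr11:99024160-99024379, minus strand: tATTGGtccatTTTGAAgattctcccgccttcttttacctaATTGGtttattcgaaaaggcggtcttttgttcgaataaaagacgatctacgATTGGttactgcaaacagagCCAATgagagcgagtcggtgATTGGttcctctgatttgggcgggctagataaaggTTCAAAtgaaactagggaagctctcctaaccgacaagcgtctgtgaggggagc
Aurka, chr2:172370541-172370760, minus strand: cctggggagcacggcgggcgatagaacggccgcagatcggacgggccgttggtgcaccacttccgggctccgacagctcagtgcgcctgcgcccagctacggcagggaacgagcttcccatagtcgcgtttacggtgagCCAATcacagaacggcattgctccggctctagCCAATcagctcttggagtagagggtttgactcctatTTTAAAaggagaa
Bub1, chr2:127831830-127832049, minus strand: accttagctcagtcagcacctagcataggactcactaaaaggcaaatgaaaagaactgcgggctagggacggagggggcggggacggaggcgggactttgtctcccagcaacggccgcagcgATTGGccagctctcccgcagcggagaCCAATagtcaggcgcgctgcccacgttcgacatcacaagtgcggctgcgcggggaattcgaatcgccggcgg
Cdkn1a, chr17:29093579-29093798, plus strand: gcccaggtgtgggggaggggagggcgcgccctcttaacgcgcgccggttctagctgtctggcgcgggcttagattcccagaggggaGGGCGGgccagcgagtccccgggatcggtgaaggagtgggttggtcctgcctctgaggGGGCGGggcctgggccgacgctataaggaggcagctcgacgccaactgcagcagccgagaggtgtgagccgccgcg

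Every one of the 36 genes had a promoter peak, meaning a peak within 1 kb of any annotated start, in each library. The share was 100% (exact interval 90.3 to 100%), beside 60.2% of all protein-coding genes (13187 of 21911). Taken 1 library at a time, the background was 60.8% in replicate 1 and 71.1% in replicate 2. By class, the counts were 14 of 14 replication genes (76.8 to 100%), 9 of 9 G1/S control genes (66.4 to 100%), 10 of 10 mitosis genes (69.2 to 100%) and 3 of 3 exit genes (29.2 to 100%). The 4 classes therefore gave the same answer by this count. Much of this share is common among promoters rich in CpG: of the 8429 protein-coding genes whose RefSeq promoter had a CpG ratio (observed over expected) of at least 0.6, 7741 had a promoter peak in both libraries, a background of 91.8%. Of the 28 cell cycle genes with a RefSeq promoter entry, 24 had such a ratio, with a median of 0.909 beside 0.612 over all entries. The exceptions were Mcm3 at 0.452, Rrm1 at 0.567, Tyms at 0.433 and E2f2 at 0.314, and each of these also had a promoter peak in both libraries.

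The level of openness was read as a rank, since the scale of the authors' deposited peak signal is not stated. Each gene's strongest promoter peak was ranked among all peaks of its own library. Over the 36 genes the median percentile was 92.9 in replicate 1 and 98.4 in replicate 2, beside 87.7 and 96.1 over all protein-coding genes with a promoter peak in that library. The mean of both libraries had a median of 95.7 ± 3.93 (SD between the libraries' medians, n = 2) for the cell cycle genes and 91.9 for all genes with a promoter peak in both. Ranked among genes only, where the median gene is at 50, the cell cycle genes had a median percentile of 66.8 in replicate 1 and 74.7 in replicate 2. In each library 30 of the 36 lay above 50. Genes with a promoter peak in both libraries, as all 36 had, stood at medians of 50.5 and 57.7. Of those 13187 genes, 6661 lay above 50 in replicate 1 and 7782 in replicate 2. Over the 36 genes, the ranks of the 2 libraries correlated (Spearman's rho 0.867, Pearson's r 0.903, n = 36 genes that share both libraries, as a description).

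**Figure D1:**
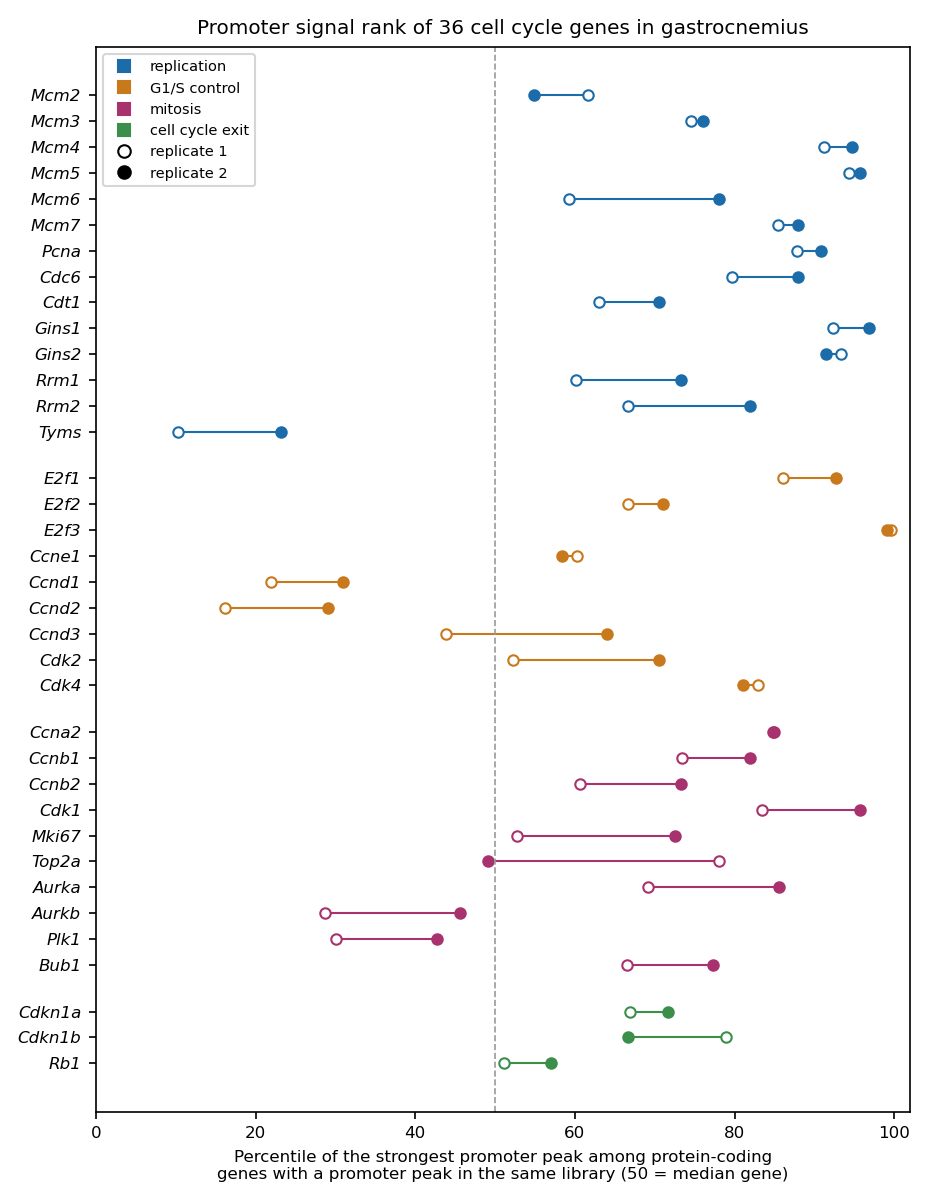
Percentile of each gene's strongest promoter peak among the protein-coding genes with a promoter peak in the same library (x axis), for the 36 genes by class (y axis). Open circles are replicate 1, filled circles replicate 2, and the dashed line is the median gene. In each library 30 of 36 genes lie to the right of the line, and Tyms, Ccnd1, Ccnd2, Aurkb and Plk1 lie left of it in both.

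Among the replication genes, the subunits of the MCM helicase, which unwinds DNA at origins, were open throughout. Mcm5 stood highest of the 6, with a signal of 8.59 in replicate 1 and 24 in replicate 2, at gene percentiles of 94.4 and 95.7. Mcm4 followed with signals of 7.25 and 21.8, at 91.2 and 94.7. Mcm7 lay at 85.4 and 87.9, Mcm3 at 74.5 and 76, Mcm6 at 59.3 and 78.1, and Mcm2 at 61.7 and 54.9. All 6 thus lay above the median gene in both libraries, and the order of neighbours such as Mcm6 and Mcm2 changed from library to library. In replicate 2, Mcm2 lay below the median of 57.7 for genes with a promoter peak in both libraries.

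Other members of the replication machinery ranked as high. Gins1 and Gins2, subunits of the GINS complex that joins the helicase, had gene percentiles of 92.4 and 96.9 and of 93.3 and 91.5 in replicates 1 and 2. Pcna, the sliding clamp of DNA polymerases, had signals of 6.33 and 16.7, at 87.8 and 90.8. The licensing factors Cdc6 and Cdt1, which load the helicase, lay at 79.7 and 87.9 and at 63 and 70.6. For the enzymes that make deoxynucleotides the picture was split. Rrm1 and Rrm2, the subunits of ribonucleotide reductase, lay at 60.1 and 73.3 and at 66.6 and 81.9. Tyms, the thymidylate synthase, had signals of 0.673 and 1.35 and lay at 10.3 and 23.2, the lowest of all 36 genes in both libraries. Its strongest promoter peak in replicate 1 overlapped no footprint, while that in replicate 2 overlapped 2.

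The genes of G1/S control ran from 16.2 to 99.6 in replicate 1 and from 29.1 to 99.1 in replicate 2, and the replication genes from 10.3 to 94.4 and from 23.2 to 96.9. E2f3, an activating E2F factor, had the strongest promoter peak of the 36, with a signal of 16.8 in replicate 1 and 40.1 in replicate 2, at gene percentiles of 99.6 and 99.1. E2f1, of the same activating group, had signals of 5.97 and 18.8, at 86.1 and 92.7, and E2f2 lay at 66.7 and 71. Cdk4, the kinase partner of D-type cyclins, had 82.9 and 81.1. Cdk2, the partner of cyclins E and A, had 52.3 and 70.6, and Ccne1, which encodes cyclin E1, had 60.3 and 58.4. Of the D-type cyclins, which link growth signals to the cycle, Ccnd1 and Ccnd2 lay low in both libraries. Ccnd1 had signals of 1.12 and 2.09, at 21.9 and 30.9. Ccnd2 had 0.896 and 1.92, at 16.2 and 29.1. Ccnd3, the D-type cyclin known to be kept in differentiated muscle cells, had 2.11 and 6.42, at 43.9 and 64, above the other two in both libraries.

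The peaks of Ccnd1 and Ccnd2 also lay away from the genes' 5′ ends. In Ccnd1 the shared promoter peak (chr7:144937601-144937780, mm10) was 2.23 kb inside the gene, near an internal start, and in Ccnd2 (chr6:127150941-127151140) it was 1.15 kb inside. Counting only the 5′ end of each gene, these and Cdkn1a had no promoter peak in both libraries, which left 33 of 36 genes. The strongest peak of Cdkn1a lay 2.71 kb inside its annotated 5′ end, at another start of the gene. The shorter of the peak lists deposited for each library kept 32 of 36, without Ccnd1, Ccnd2, Tyms and Aurkb.

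Of the mitosis genes, Cdk1, the mitotic kinase, had the highest rank in replicate 2, with signals of 5.44 and 24 and gene percentiles of 83.5 and 95.7. Its cyclin partners were also open. Ccna2 lay at 85 and 84.8, Ccnb1 at 73.4 and 82, and Ccnb2 at 60.7 and 73.3. Mki67, whose protein is the Ki-67 proliferation marker, had signals of 2.59 and 8.28, at 52.7 and 72.5. Bub1, a kinase of the spindle checkpoint, lay at 66.5 and 77.3, and Aurka, the kinase of spindle poles, at 69.1 and 85.6. Top2a, the topoisomerase that untangles chromosomes, had nearly equal signals in the 2 libraries, 4.65 and 4.22, and so lay on both sides of the median gene, at 78.1 and 49.1. Aurkb and Plk1 lay low in both libraries. Aurkb, the kinase of the chromosomal passenger complex, had signals of 1.41 and 3.77, at 28.7 and 45.6. Plk1, the polo-like kinase, had 1.48 and 3.44, at 30.1 and 42.7.

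All 3 exit genes lay above the median gene in both libraries, and none ranked among the highest. Cdkn1a, which encodes the Cdk inhibitor p21, had signals of 3.52 and 8.09, at gene percentiles of 66.9 and 71.7. Cdkn1b, which encodes the inhibitor p27, had 4.77 and 6.97, at 78.9 and 66.6. Rb1, the retinoblastoma pocket protein, had 2.51 and 5.27, at 51.1 and 57. In replicate 2, Rb1 lay just below the median of 57.7 for genes with a promoter peak in both libraries. Class medians of the gene percentile were 77.1 and 84.9 for replication, 60.3 and 70.6 for G1/S control, 67.8 and 75.3 for mitosis, and 66.9 and 66.6 for exit. The ranges of the 4 classes overlapped in both libraries, and no test was made between them, since each gene appears in the same 2 libraries.

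The strongest promoter peak lay close to a start in nearly all cases. Its midpoint was within 200 bases of the nearest annotated start for 33 of 36 genes in replicate 1 and 34 in replicate 2 (91.7% and 94.4%, beside 82.3% and 78% of all genes with a promoter peak). It lay upstream of that start for 29 and 27 of the genes, beside 8800 of 13328 and 10607 of 15569 genes with a promoter peak. Over all 36, downstream ones included, its median position was 67.5 and 69.5 bases before the start. Over all genes with a promoter peak it was 26.5 and 29.5 bases before the start. Gins1 was an exception, with its strongest peak 650 and 640 bases upstream, where the promoter is shared with the neighbour Abhd12. Such coding neighbours within 1 kb of a start were found for 5 genes, namely Mcm4 with Prkdc, Mcm7 with Ap4m1, Gins1 with Abhd12, Cdk2 with Pmel and Aurka with Cstf1. This was 13.9%, beside 14.5% of all genes and 21.3% of those with a promoter peak in both libraries. For these 5, a peak cannot be given to 1 gene of the pair.

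**Figure D2:**
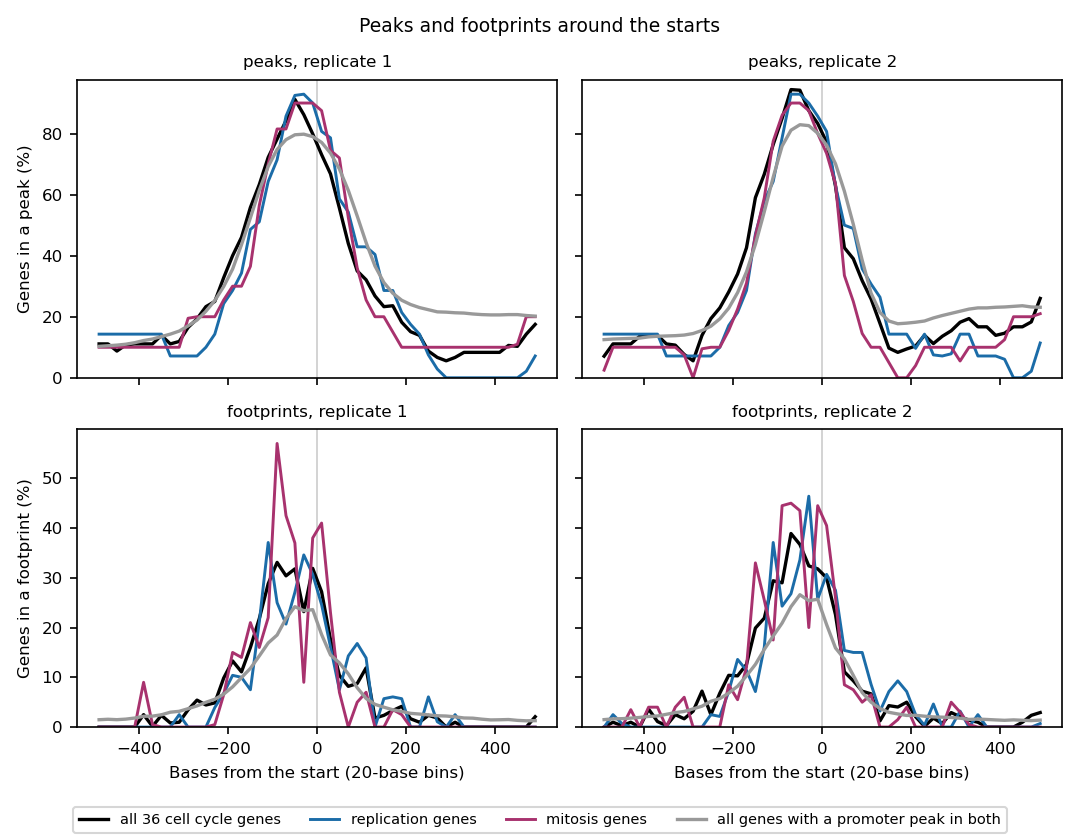
Percent of genes covered by a peak (top) or a footprint (bottom) by distance from the start (x axis, bases, 20-base bins) in replicate 1 (left) and replicate 2 (right), for all 36 cell cycle genes, the replication genes, the mitosis genes and all genes with a promoter peak in both libraries. Peaks crowd around the start, on both sides of it, in every set. At 290 bases after it the line of the cell cycle genes is below that of all genes in both libraries, and the mitosis line for footprints stands above the others 90 bases before the start and below them 30 bases before it.

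Cover by peaks past the start depended on the distance. In the 20-base bin centred 10 bases after the start, peaks covered 73.1% of the bases of the 36 genes in replicate 1 and 77.2% in replicate 2, beside 77.1% and 76.2% of all genes with a promoter peak in both. In the bin centred 290 bases after the start, chosen once the profile had been seen as a low point of the 36 genes, peaks covered 5.56% of the bases of the 36 genes in replicate 1 and 15.4% in replicate 2, beside 21.5% and 21.1%, a wider gap in replicate 1 than in replicate 2. For the replication genes the cover there was 0% in replicate 1 and 7.86% in replicate 2. Starts in this profile were those nearest the strongest promoter peak of replicate 2, in every set. Footprints of mitosis genes were uneven along the promoter. In the bin 90 bases before the start, chosen as the highest point of their profile in replicate 1, they covered 57% of the bases over the 10 genes in replicate 1 and 44.5% in replicate 2, beside 18.5% and 20.9% of all genes with a promoter peak in both. In the bin 30 bases before the start, which was not set in advance either, they covered 9% and 20%, beside 23.4% and 25.4%. With 10 genes, 1 gene makes up 10% of such a share, and none of these differences was tested.

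Footprints were present throughout. All 36 genes had a footprint inside a promoter peak in both libraries, beside 58.5% of all protein-coding genes (12809 of 21911). Such a footprint needs a promoter peak, and among the 13187 genes with a promoter peak in both libraries the share was 97.1%, so the count adds little to that of peaks. The median number of footprints in promoter peaks was 5 in replicate 1 and 6 in replicate 2, from 1 to 15 and from 1 to 17. Ccnd3, with 19 annotated starts, had the most in replicate 2, and E2f3 the most in replicate 1. Cdk4 and Ccnd1 had 1 in replicate 1 against 9 and 10 in replicate 2.

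Motif words were counted in the 28 promoters from 250 bases before to 50 bases after the RefSeq start. Where a gene has several entries, the one nearest its strongest promoter peak of replicate 2 was read. For background genes without a promoter peak in replicate 2, the first entry listed was read. The stretch read overlapped the strongest promoter peak of both libraries in 25 of the 28. In E2f1 and Cdc6 it overlapped that of neither, and in Mcm7 that of replicate 2 alone, so their open promoter was read in part or not at all. Ccna2, Ccnd1, Ccnd2, Mcm4, Gins1, Gins2, Aurkb and Rb1 had no entry. CCAAT was present in 21 of 28 (75%), beside 38.8% of 16522 promoters of protein-coding genes. The mitosis genes carried it in 8 of 8 promoters. A CHR word was present in 14 of 28 (50%), beside 24.2% of all promoters, and in 7 of 8 mitosis promoters. Both words occurred together in 7 of 8 mitosis promoters, all but Bub1, beside 9.84% of all promoters. An E2F word was present in 8 of 28 (28.6%), beside 3.17% of all promoters. Among replication genes it was found in 5 of 11, namely Mcm3, Mcm5, Mcm6, Cdc6 and Cdt1, and outside them in E2f3, Cdk2 and Cdk1. The SP word was present in 24 of 28 (85.7%, beside 49.1%). The NRF1 word GCATGCGC was present in Cdt1 alone (beside 3.81%), and the E-box CAGCTG, read by muscle regulatory factors, in 3 of 28 (beside 15.2%). Every promoter read here belongs to a gene with peaks near a start in each library, so a closer background is the 10305 promoters of such genes. Of these, 67.3% carried the SP word, against 49.1% of all promoters, so the gap for SP was narrower. For the others the share was 38.9% (CCAAT), 17.8% (CHR), 7.36% (CHR with CCAAT), 4.48% (E2F), 5.58% (NRF1) and 15% (E-box). All these words are matches of letters, not binding sites.

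**Figure D3:**
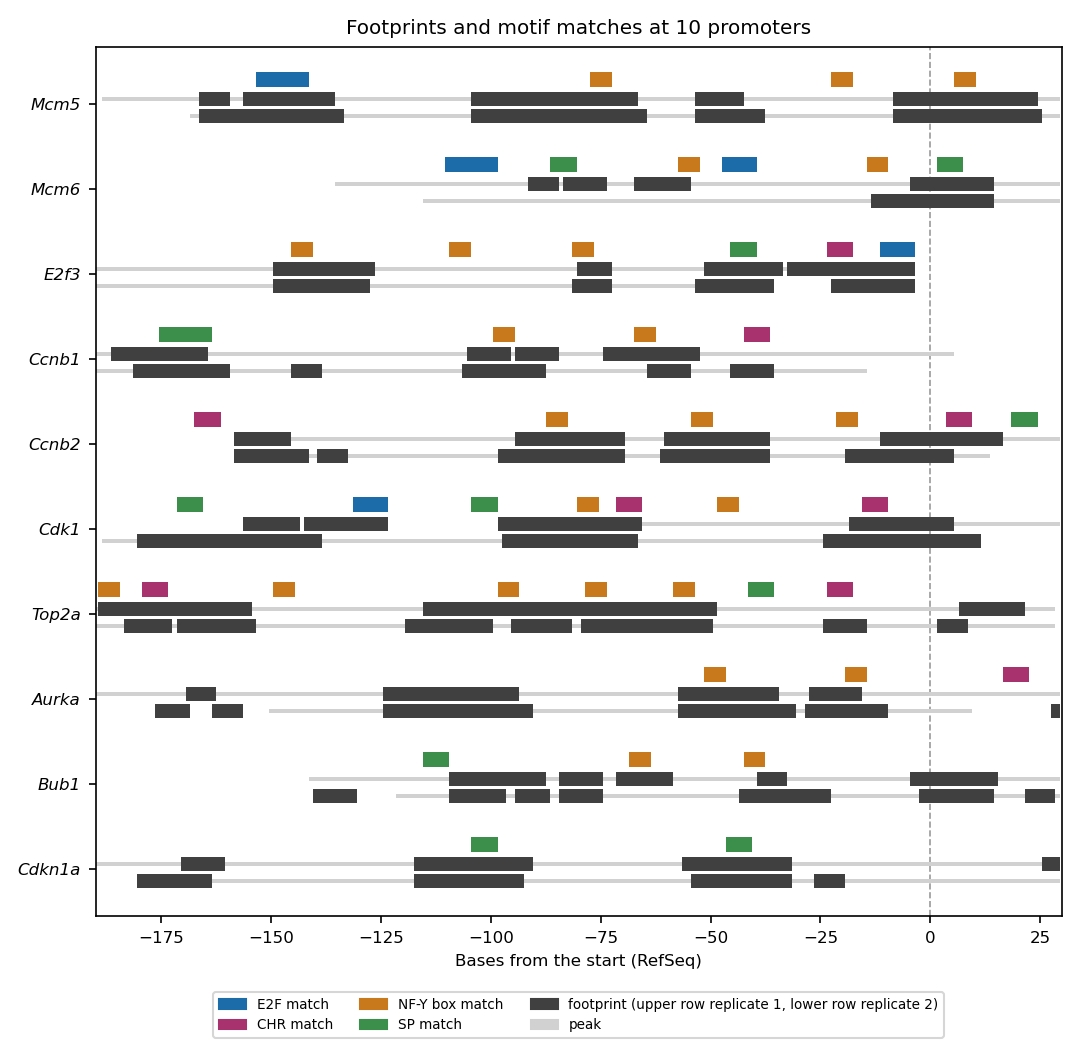
Deposited footprints (dark bars, upper row replicate 1 and lower row replicate 2), peaks (pale bars) and motif matches (coloured bars) at the 10 promoters printed above, by distance from the RefSeq start (x axis, bases). NF-Y box marks CCAAT. Footprints of both libraries overlap matches in Ccnb1, Ccnb2, Cdk1, Top2a, Aurka, Bub1, E2f3 and Mcm5, while the E2F matches of Mcm6 lie outside footprints.

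Footprints of both libraries fell on several of the printed matches, where an overlap of at least 1 base was counted. In Ccnb1 both libraries had footprints over the CCAAT boxes that begin 99 and 67 bases before the start, and its CHR word at 42 bases before had one in replicate 2 alone. Ccnb2 had footprints of both libraries over CCAAT at 87 and 54 bases before the start and over the CHR word that begins 4 bases after it. In Cdk1, a single footprint in each library, from 98 to 66 bases before the start in replicate 1 and from 97 to 67 in replicate 2, spanned or met a CCAAT box at 80 and a CHR word at 71 bases before, and another covered the CHR word at 15 bases before. Top2a had footprints of both libraries over the CCAAT boxes at 98, 78 and 58 bases before the start, and over the CHR word at 179.

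The same held for other kinases of mitosis. Aurka had footprints of both libraries over CCAAT at 51 and 19 bases before the start. Bub1 had them at 42 bases before, and Plk1, which ranked low in signal, at 14 bases before. Mki67 differed: its 3 CCAAT and 2 CHR words lay inside peaks of both libraries, and none was under a footprint of both. Over all CCAAT matches inside peaks of both libraries, footprints of both lay on 12 of 20 in the mitosis genes and on 21 of 42 in all cell cycle genes (50%), beside 50.9% over all promoters. A CCAAT match in a cell cycle promoter was therefore about as often in a footprint as elsewhere. For CHR words the counts were 4 of 11 in the mitosis genes and 4 of 14 in all cell cycle genes (28.6%), beside 16.2% over all promoters and 1 of 11 (9.09%) in the other mitosis genes.

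Only 2 of the 7 E2F matches inside peaks of both libraries were in a footprint of both (28.6%, beside 33.7% over all promoters). They are the overlapping words of Mcm5, on opposite strands at 153 and 149 bases before the start. There the footprints ran from 156 to 136 bases before the start in replicate 1 and from 166 to 134 in replicate 2. Mcm6 had 3 E2F words, at 110, 106 and 47 bases before the start, inside peaks of both libraries, and no footprint of either overlapped any of them. Mcm3 had E2F words at 19 and 38 bases after the start, with a footprint in replicate 2 alone. E2f3 carried an E2F word at 11 and a CHR word at 23 bases before its own start, both under footprints of both libraries. The strongest peak ended 18 bases before the start in replicate 1 and 38 in replicate 2, so these footprints lay at its edge or past it. Cdkn1a had no E2F, CHR or CCAAT match in its entry, and both its SP words lay under footprints of both libraries.

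The extent of open DNA was also read from the authors' cut-rate segments, each with a false discovery rate. Bases whose rate was at most 0.001 were counted within 1 kb of the start. The cell cycle genes had a median of 617 bases in replicate 1 and 813 in replicate 2, beside 561 and 730 over genes with a promoter peak in both libraries and 197 and 405 over all protein-coding genes. Mitosis genes had 586 and 471, replication genes 635 and 698, G1/S control genes 556 and 1193, and exit genes 1016 and 1701. Rb1, with 1490 and 1701 bases, and Mcm7, with 1332 and 1379, were wide in both libraries. Plk1, with 277 and 361, and Top2a, with 336 and 381, were narrow in both.

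**Figure D4:**
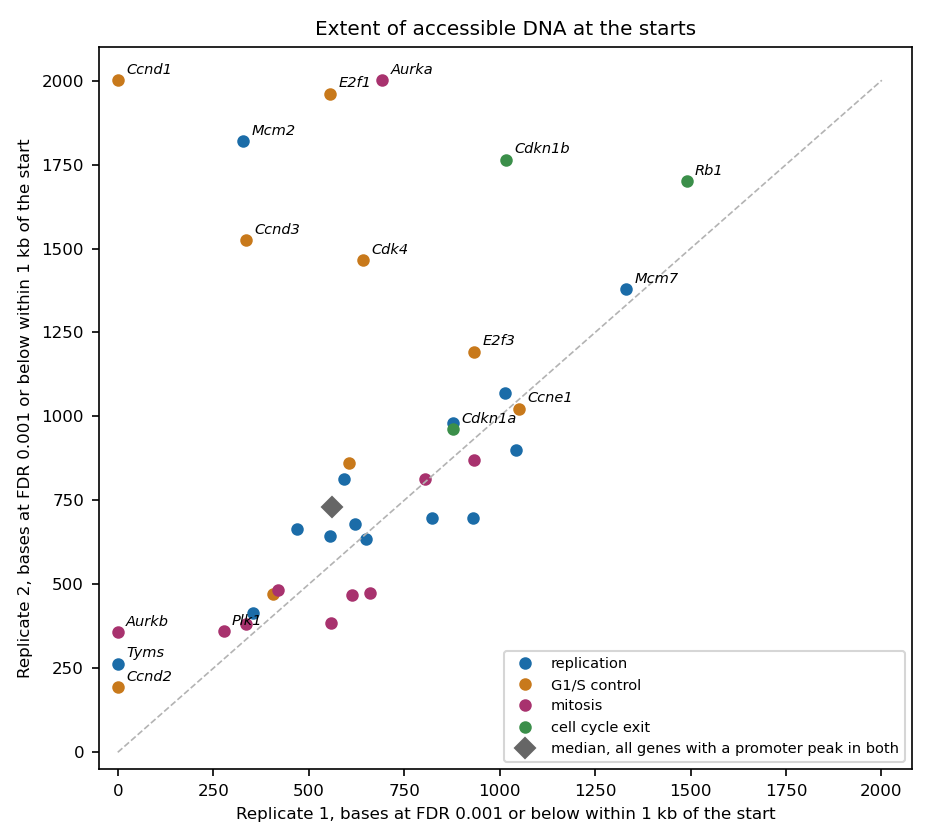
Bases within 1 kb of the start in cut-rate segments whose rate was at most 0.001, in replicate 1 (x axis) and replicate 2 (y axis), 1 point per cell cycle gene coloured by class. The diamond is the median of all genes with a promoter peak in both libraries, at 561 and 730 bases, and the dashed line marks equal values. Ccnd1, Tyms, Ccnd2 and Aurkb lie at 0 in replicate 1.

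Libraries parted at a handful of genes. Ccnd1, Tyms, Ccnd2 and Aurkb had 0 such bases in replicate 1, though each had a peak there, and 2001, 264, 195 and 357 in replicate 2. Aurka had 693 bases in replicate 1 and all 2001 in replicate 2. Mcm2 had 329 and 1820, E2f1 556 and 1961, Ccnd3 335 and 1525, and Cdk4 642 and 1465. At these starts the width of open DNA is a value of 1 library, not of the group.

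Around the genes, windows of the gene body and 10 kb either side held a median of 2 shared peaks, from 1 to 9, beside 2 over all protein-coding genes. Replicate 1 had a median of 2.5 peaks a window and replicate 2 had 6, beside 2 and 5 over all protein-coding genes. Genes with a promoter peak in both libraries had medians of 3 shared peaks, 3 peaks in replicate 1 and 8 in replicate 2. The windows of those genes had a median of 45.6 kb, against 34.1 kb for the cell cycle genes. Per 10 kb of window, the medians were 0.639 shared peaks for the cell cycle genes, 0.528 for genes with a promoter peak in both libraries and 0.326 for all genes. Of the 107 shared peaks, 60 lay within 1 kb of the gene's own start, 25 within 1 kb of another gene's start and 22 near no start. Over all protein-coding genes, with each peak counted once per window, these places held 22685, 11874 and 22026 of 56585. The 22 near no start fell in the windows of 10 genes (27.8%, beside 37.5% of all genes). No shared peak away from starts was found in the windows of 12 of 14 replication genes, 4 of 9 G1/S control genes, 8 of 10 mitosis genes and 2 of 3 exit genes. Over all classes this was 72.2%, beside 62.5% of all protein-coding genes and 50.8% of those with a promoter peak in both libraries.

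**Figure D5:**
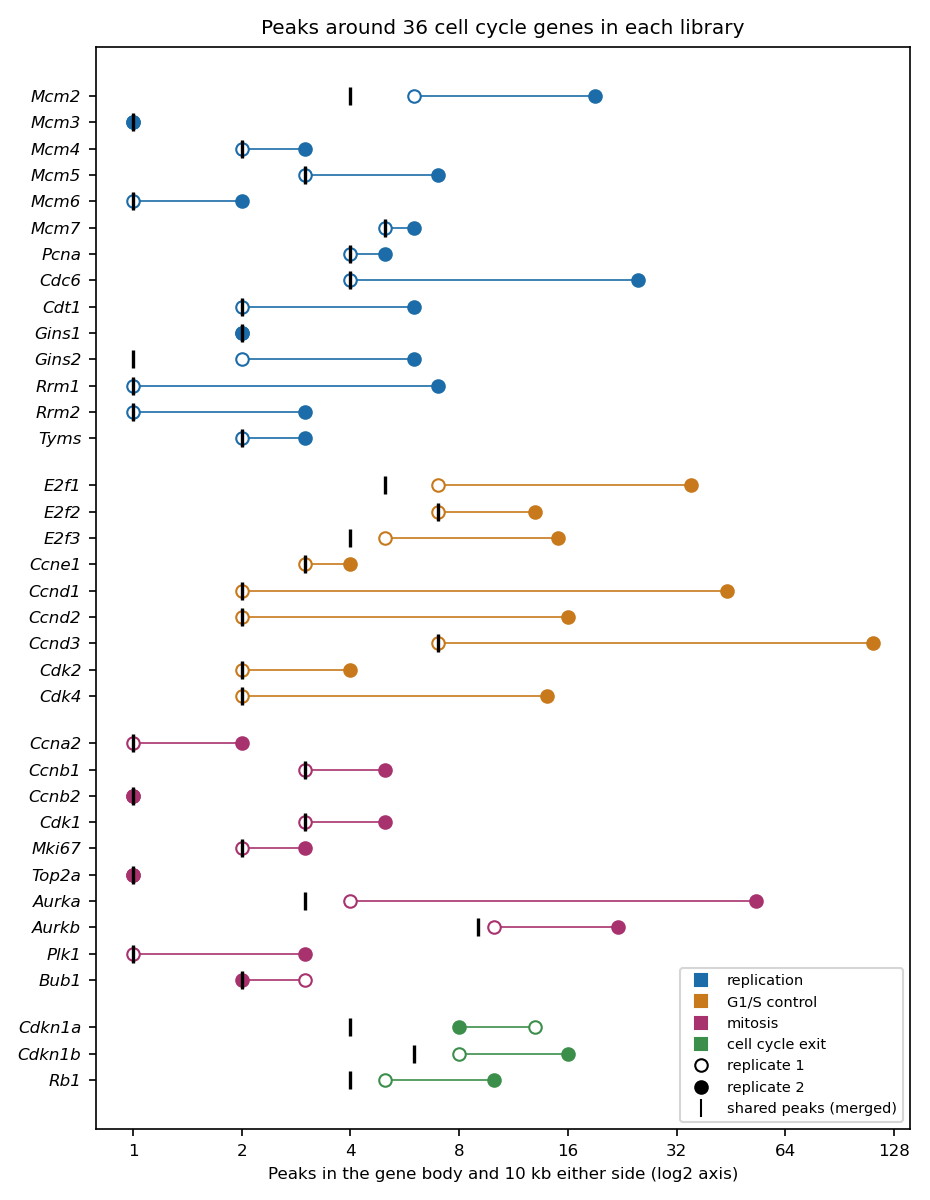
Peaks in the gene body and 10 kb either side (x axis, log2 scale) in replicate 1 (open circles) and replicate 2 (filled circles), with shared peaks as black ticks, for the 36 genes by class. Aurkb has 9 shared peaks and every other gene 1 to 7, while Ccnd3, Aurka, Ccnd1 and E2f1 have far more peaks in replicate 2 than in replicate 1.

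Aurkb, low at its promoter, had the most shared peaks, 9, of which 6 lay near no start between 9.58 and 3.87 kb upstream of its 5′ end. The widest of these, chr11:69039981-69040800 (mm10), stood at the 80.6th percentile of all peaks in replicate 1 and the 95th in replicate 2, beside 75.9 and 95.5 for the peak at the Aurkb start. Ccnd3 had 7 shared peaks, of which 3 near no start lay in the gene body 3.08, 6.26 and 6.8 kb from its 5′ end. The middle one, chr17:47511141-47511480, was at percentiles of 95.5 and 98, above the 85.2 and 97.6 of its strongest promoter peak. E2f2 had 7, and Cdkn1b had 6, of which 2 were near no start. Which gene such a peak acts on was not tested.

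Peak numbers in windows followed the libraries. Ccnd3 had 7 peaks in replicate 1 and 112 in replicate 2, Aurka 4 and 53, Ccnd1 2 and 44, E2f1 7 and 35, and Cdc6 4 and 25. Cdkn1a ran the other way, with 13 in replicate 1 and 8 in replicate 2, as did Bub1 with 3 and 2. These were the only genes of the 36 with more peaks in replicate 1 (5.56%, beside 4.37% of all protein-coding genes).

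The other genes of these pathways gave the same count. A promoter peak in both libraries was found at 26 of 26 other replication genes, 26 of 26 other mitosis genes, 15 of 15 genes for pocket proteins, E2F and MuvB factors and 13 of 13 other exit genes, 80 of 80 in all (exact interval 95.5 to 100%). Beside this stand 60.2% of all protein-coding genes and 91.8% of those with a promoter CpG ratio of at least 0.6. Of the promoters with a RefSeq entry, such a ratio was found in 95.5%, 94.7%, 83.3% and 83.3% of the 4 lists, in the same order. The median gene percentile of the 80 genes was 70 in replicate 1 and 75.2 in replicate 2. Genes with a promoter peak in both libraries stood at 50.5 and 57.7. The other exit genes had the highest medians of the 4 lists, 87.7 and 85.2, and the pocket protein, E2F and MuvB genes had 55.6 and 73.

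By number of shared peaks in the window, the first 3 of the other replication genes were Pold1, a catalytic subunit of DNA polymerase delta, with 16, Chaf1a, of chromatin assembly factor 1, with 11, and Uhrf1, which maintains DNA methylation, with 5. Among other mitosis genes they were the phosphatases Cdc25a with 7 and Cdc25b with 6, which activate Cdks, and Tpx2, a spindle factor, with 5. For the pocket protein, E2F and MuvB list they were Lin37 with 8 and E2f4 with 4, followed by 6 genes with 3 each (E2f6, Lin54, Lin9, Rbbp4, Tfdp1 and Tfdp2). Among other exit genes they were Trp53 with 7, and Ccng2 and the Cdk inhibitor gene Cdkn2c with 6 each. E2f4, the repressor E2F of resting cells, had gene percentiles of 55.6 and 73.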

How the data were processed

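Peaks, footprints and cut-rate segments were used as the authors deposited them, 1 set per library, on mm10 per the labels. Peaks were called per library, per the README deposited with each; the aligner is not given in the sources used here, and neither are the callers. The deposited signal of each peak has no stated scale and was ranked within a library only. The deposited p-value column held 0.01 for every footprint, and for cut-rate segments it was read as a false discovery rate. Depth is unknown, and intervals (exact Clopper-Pearson, 95%) cover counting error only.

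The longer deposited peak list of each library was used, as in earlier work on these files, and the shorter one was an alternative. Genes and starts came from GENCODE M21, promoter sequences from RefSeq (GRCm38.p6). Windows were the gene body plus 10 kb. Peaks that overlapped by at least 1 bp between libraries were merged. The members and lists were chosen with earlier results of these data known. The text names all 36 members and the 3 genes of each other list whose windows held most shared peaks, ties included. With 1 group, no comparison between conditions and no p-value was possible. Alternatives changed the promoter width, the window, the peak list, a signal limit, the starts used, or left out 1 library. Functions were tested on simulated peaks and motifs. Python 3.11.15, numpy 2.4.6, pandas 2.3.3, scipy 1.17.1 and matplotlib 3.10.9 were used.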

Additional observations from a re-analysis of the deposited data

How the results depend on the processing

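The count of cell cycle genes with a promoter peak in both libraries was 36 with promoters of 500 bases or 2 kb either side (beside 59.1% and 61.6% of all protein-coding genes). It was also 36 with equal numbers of the strongest peaks from each library (beside 58%) and with the demand that the peaks overlap each other (beside 59.6%). In replicate 1 alone and in replicate 2 alone it was again 36 (beside 60.8% and 71.1%). The count was 35 among peaks above the median signal of each library, without Tyms (beside 53.5%). It was 33 at the 5′ end only (beside 55.8%), and 32 in the shorter lists (beside 53.6%). The count with a footprint was 36 in all 4 alternatives run, beside 57.2 to 67.9% of all protein-coding genes. The median promoter percentile was between 92.9 and 98.4 in its 5 alternatives. Over all protein-coding genes with a promoter peak in the libraries used, it was between 87.7 and 96.1. The median number of shared peaks in windows moved with the window and the library: it was 6.5 with 50 kb either side (beside 4 over all genes), and the median number of peaks ran from 2.5 without replicate 2 to 6 without replicate 1. No paired analysis was possible because there is 1 group. The libraries differ 3.86 times in peak number at an unknown depth. The cause of that difference was not tested.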

Other observations

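CCAAT boxes of several mitosis genes stood at a regular distance from each other. Spacing was measured from the first base of one match to the first base of the next, whichever strand each lay on. It was 32 bases in Ccnb1, 32 in Aurka, and 33 and again 33 in Ccnb2. In Cdk1 it was 32 between the matches at 80 and 48 bases before the start. The matches of each of these pairs lay on the same strand. A spacing of 31 to 33 bases between neighbouring matches occurred in 4 of the 7 mitosis promoters with at least 2 matches and in 0 of the 4 such replication promoters. Over all protein-coding genes it occurred in 212 of 2205 such promoters (9.61%), with both matches on the same strand in 180. Where the gene had a promoter peak in both libraries, it was 192 of 1573 (12.2%), with both on the same strand in 169. Among the other mitosis genes it was 1 of 8. The range of spacings was chosen after the matches had been seen, so these counts are a description and carry no test. In Ccnb1, Aurka and Ccnb2, footprints of both libraries lay on both members of at least 1 such pair, whereas in Cdk1 the match at 48 bases before the start had none. Top2a, with 6 CCAAT matches, had spacings of 20 to 51 bases, and those of 20 bases were between matches on opposite strands.

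Promoter rank among the 28 cell cycle genes with a RefSeq entry was only loosely related to the CpG ratio (Spearman's rho 0.211, Pearson's r 0.269, a description over genes that share both libraries). E2f2, with the lowest CpG ratio of the 28 at 0.314, had its strongest peak at a start 8.24 kb inside the gene, and stood at gene percentiles of 66.7 and 71.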
